A study of Mus musculus with 52 samples.

Results

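Atf4 and 9 genes that it is known to switch on were followed through the daughters of single mouse BFU-E cells (burst-forming unit-erythroid), early progenitors committed to the red cell lineage. Those cells are called founders here. The 10 genes were Atf4, Asns, Phgdh, Psat1, Shmt2, Mthfd2, Trib3, Ddit3, Chac1 and Slc7a11, taken by symbol from the 49466 genes of both count tables. The set was chosen by name with earlier values of these data in view, and Mthfd2 was selected on its low value in the treatment comparison of all pairs, so differences in level between treatments are given for the 10 genes as a description, with no test.

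Founders were isolated from livers of embryonic day 14.5 fetuses of strain C57/Bl6J. Cells carrying antigens of lymphoid, myeloid, megakaryocytic, mature red or Sca-1-positive stem cells were depleted, and the rest were sorted with antibodies against CD117 (the Kit receptor), CD71 (the transferrin receptor) and CD24. Each founder stood alone in a well, in the same medium with 100 nM dexamethasone, a synthetic glucocorticoid (Dex), or without it (NoDex), and a well was used where it had divided once after 16 hours. Its daughters were sequenced separately from polyadenylated RNA, which gave 13 Dex pairs and 13 NoDex pairs, or 52 libraries. The replicate is the pair, that is the founder together with its well, and no animal is named for any pair. P-values of comparisons between treatments therefore cover only the spread between founders and wells. P-values of the test between founders, given below, are measured against the difference between the daughters of a pair.

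ATF4 is the transcription factor at the end of the integrated stress response. When amino acids run short, heme is lacking or proteins misfold, kinases phosphorylate eIF2, most translation slows, and Atf4 messenger RNA is translated more, so that much of its control is not visible in transcript counts. ATF4 then raises genes for amino acid synthesis and uptake and, under lasting stress, genes that damp the response or lead to cell death. In red cell precursors the heme-regulated eIF2 kinase feeds into the same pathway.

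ATF4 with a C/EBP partner binds a composite element, written here as TGATGNAA, with TGATGCAA as its common form. The RefSeq promoter table (GRCm38.p6, 250 bases before to 50 after each start) held all 10 genes, Psat1 with 2 starts. On either strand, TGATGNAA was found for 4 of the 10 genes (Asns, Trib3, Chac1 and Slc7a11), and TGATGCAA, which is contained in it, for 2 (Chac1 and Slc7a11). Among all 32851 promoters of this length, 3.97% held TGATGNAA and 0.895% held TGATGCAA. The stretches around the matches are shown because they carry the letters that these 4 genes share, with the matches in capitals, read 5′ to 3′ along the gene's strand.
Asns, chr6:7693214-7693243, minus strand: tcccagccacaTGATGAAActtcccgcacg
Trib3, chr2:152344028-152344057, minus strand: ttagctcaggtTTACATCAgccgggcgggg
Chac1, chr2:119351023-119351082, plus strand: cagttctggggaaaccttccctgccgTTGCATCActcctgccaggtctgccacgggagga
Slc7a11, chr3:50443637-50443696, minus strand: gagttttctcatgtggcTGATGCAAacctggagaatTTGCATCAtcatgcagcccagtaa
The Asns match read along the gene and began 23 bases before the RefSeq start. The Trib3 match began 14 bases after its start and the Chac1 match 193 bases before, both on the opposite strand. GENCODE places the start of Trib3 at 152344032, beyond the match, and that of Asns at 7693254, ahead of the match. For both genes the annotations thus disagree on whether the match is transcribed. Slc7a11 held a match on each strand. A match describes letters only, and its absence from the other windows says nothing on binding of ATF4 there.

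The results rest on 23 pairs in which both libraries held at least 100000 counts, 13 Dex and 10 NoDex. The 26 Dex libraries held 210383 to 4176347 counts and the 20 NoDex libraries 405058 to 5606500. Levels are counts scaled to a common library total (CPM), and 10 CPM was taken as clear detection. The erythroid genes Gata1 and Klf1 each reached it in both daughters of 18 pairs and in neither daughter of 4. At least 3 of 15 granulocyte and monocyte markers reached 10 CPM in some daughter of 4 Dex pairs (6, 7, 10 and 12) and 3 NoDex pairs (5, 9 and 10). Summed over that list, levels ran from 0 to 26314 CPM in Dex libraries and from 0.278 to 41463 CPM in NoDex libraries, with Cebpe, Ltf, Ngp and S100a9 at 0 throughout. At least 3 markers at 10 CPM were found for erythroid cells in 37 of 46 libraries, for early progenitors in 34 and for megakaryocytes in 10. For mast cells, lymphoid cells, macrophages, hepatocytes, endothelium or stem cells the number was 0. Only 2 mast cell, 1 lymphoid and 2 macrophage markers reached 10 CPM in any library. Summed mast cell markers still reached 1154 CPM in a Dex library, and lymphoid markers 799 CPM in a NoDex library. Not all daughters therefore carried the red cell genes that the label of their founders implies.

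In level the genes fell into 2 sets. Per kilobase of exon, the median over 46 libraries was 299 CPM for Asns, 213 for Shmt2, 213 for Phgdh, 162 for Psat1, 102 for Atf4 and 83.0 for Mthfd2. The interquartile ranges of neighbours in this order overlapped, from 103 to 500 CPM per kilobase for Asns to 40.0 to 99.9 for Mthfd2. Ddit3, at a median of 1.27 with an interquartile range of 0 to 18.6, stood below all of these. Slc7a11 had a median of 0.0216, and Trib3 and Chac1 a median of 0. Enzymes of asparagine, serine and folate metabolism were thus at 10 CPM or more in 40 to 46 of the 46 libraries. Ddit3 reached it in 19, Trib3 in 14, Slc7a11 in 4 and Chac1 in 2.

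**Figure D1:**
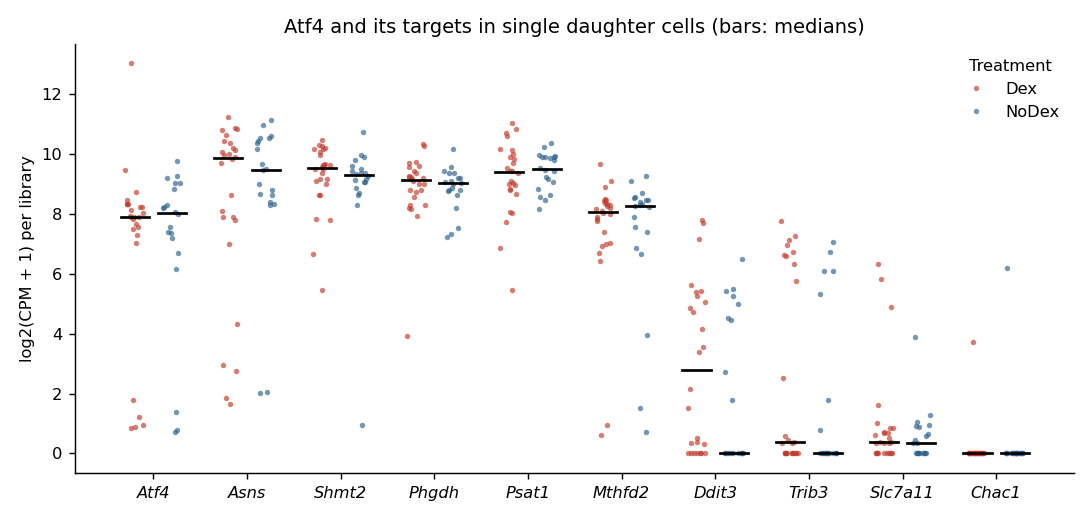
Level of each gene, log2(CPM + 1) on the vertical axis, in the 26 Dex (left, red) and 20 NoDex (right, blue) libraries of the 23 pairs, 1 point per library, with the median as a bar. The 5 enzymes and Atf4 have medians of 237 CPM or more in both treatments, with some libraries under 10 CPM for Atf4, Asns and Mthfd2, 1 for Shmt2 and 0 for Phgdh and Psat1, while Trib3, Ddit3, Slc7a11 and Chac1 are at or near 0 in most libraries.

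Atf4 itself (chromosome 15, 80255184 to 80257541, plus strand) ranged from 0.817 to 8323 CPM in Dex libraries with a median of 237, and from 0.630 to 861 CPM in NoDex libraries with a median of 260. The groups overlapped fully. Its transcript reached 10 CPM in both daughters of 15 pairs and in a single daughter of the other 8. In Dex pair 11 the daughters held 697 and 0.951 CPM, and in NoDex pair 10 they held 255 and 0.630 CPM. In these pairs Atf4 was clearly detected in one sister and at the floor in the other. The most unequal pair was Dex pair 12, with 8323 CPM in daughter 1 and 0.817 CPM in daughter 2. That daughter 1 was the shallowest of the 46 libraries, with 210383 counts.

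Asparagine synthetase, encoded by Asns (chromosome 6, 7675169 to 7693254, minus strand), makes asparagine from aspartate and glutamine. It ran from 2.15 to 2420 CPM in Dex libraries with a median of 931, and from 3.05 to 2256 CPM in NoDex libraries with a median of 710. Between these ends, whole pairs were high or low. Both daughters were under 10 CPM in Dex pair 7, with 2.15 and 6.81 CPM, and in NoDex pair 10, with 3.05 and 3.15 CPM. At the other end, Dex pair 3 held 2420 and 1799 CPM and NoDex pair 13 held 1465 and 1992 CPM. A founder with much Asns in one daughter thus mostly had much in the other, in both treatments.

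Phgdh and Psat1 encode the first enzymes of serine synthesis from glycolysis, and both were detected at 10 CPM in all 46 libraries. Phgdh (chromosome 3, 98313170 to 98339990, minus strand) ran from 14.3 to 1295 CPM in Dex libraries with a median of 559, and from 148 to 1133 CPM in NoDex libraries with a median of 518. Psat1 (chromosome 19, 15904678 to 15947337, minus strand) ran from 42.8 to 2090 CPM in Dex libraries with a median of 670, and from 287 to 1326 CPM in NoDex libraries with a median of 721. The lowest Dex value of both came from daughter 1 of Dex pair 12. The pseudogene Gm3329 lies within Psat1, so a part of its reads is uncertain.

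Shmt2 and Mthfd2 encode mitochondrial enzymes that pass a one-carbon unit from serine into folate. Shmt2 (chromosome 10, 127517123 to 127522444, minus strand) ran from 42.8 to 1428 CPM in Dex libraries with a median of 734, and from 0.920 to 1694 CPM in NoDex libraries with a median of 629. Only daughter 2 of NoDex pair 9, at 0.920 CPM against 646 in its sister, fell under 10 CPM. Shmt2 overlaps Ndufa4l2 on the other strand, and whether counting used strand is not stated in the sources used here, so reads of the overlap cannot be told apart.

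Mthfd2 (chromosome 6, 83305691 to 83325908, minus strand) ran from 0.537 to 811.5 CPM in Dex libraries with a median of 267, and from 0.630 to 615 CPM in NoDex libraries with a median of 309. Of the 46 libraries, 4 were under 10 CPM. They were daughter 1 of Dex pair 7, daughter 2 of Dex pair 11, and daughter 2 of NoDex pairs 9 and 10. In 3 of the 4, all but that of NoDex pair 9, Atf4 was under 10 CPM as well, while the sister cell held 201 CPM of Atf4 and 319.5 of Mthfd2 in Dex pair 7, 697 and 343 in Dex pair 11, and 255 and 615 in NoDex pair 10. In these 3 pairs both transcripts were near 0 in 1 daughter and well detected in the other. Other daughters with Atf4 under 10 CPM kept Mthfd2. It held 214 CPM in daughter 2 of Dex pair 6, 304 in daughter 1 of Dex pair 8 and 811.5 in daughter 2 of Dex pair 12. In daughter 1 of NoDex pair 9 it held 14.65 CPM, and in daughter 2 of NoDex pair 13 it held 99.9 CPM.

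The stress genes were rarer and less even. Trib3 (chromosome 2, 152337422 to 152344032, minus strand) encodes a pseudokinase that feeds back on ATF4. It was at 10 CPM or more in 9 of 26 Dex libraries, up to 217 CPM, and in 5 of 20 NoDex libraries, up to 131 CPM. Of the 13 pairs in which it was detected, Dex pair 2 had it in both daughters, at 52.9 and 97.9 CPM, and 12 had it in one daughter alone. In Dex pair 4 the daughters held 217 and 0 CPM, and in NoDex pair 2 they held 131 and 0 CPM. The positive cell was daughter 1, whose library code ends in A, C, E or G, in 9 of those 12 pairs and daughter 2 in 3. The part of the library position in this was not tested.

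Ddit3 (chromosome 10, 127290774 to 127296288, plus strand) encodes CHOP, a transcription factor tied to cell death under stress. It reached 10 CPM in 12 of 26 Dex libraries, up to 222 CPM, and in 7 of 20 NoDex libraries, up to 88.4 CPM. Unlike Trib3 it was often in both sisters, in 6 pairs against 7 with one positive daughter. Dex pair 11 held 141 and 222 CPM, Dex pair 10 held 206 and 41.3 CPM, and NoDex pair 8 held 43.9 and 88.4 CPM. Ddit3 overlaps Mars, Gm4189 and a second annotated gene of the same name, so its reads may be shared with them.

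Chac1 (chromosome 2, 119351229 to 119354381, plus strand) encodes an enzyme that degrades glutathione, and Slc7a11 (chromosome 3, 49892526 to 50443614, minus strand) the cystine and glutamate exchanger. Chac1 was at 0 in 44 of 46 libraries. It held 12.1 CPM in daughter 1 of Dex pair 4 and 71.6 CPM in daughter 2 of NoDex pair 5. Slc7a11 reached 10 CPM in 3 Dex libraries, at 79.7, 55.6 and 28.8 CPM, and in 1 NoDex library, at 13.7 CPM, each time with the sister under 1 CPM. Neither gene passed the filters of the tests across genes, which the other 8 did. With every library thinned to 200000 counts and 2 counts taken as detection, the numbers of positive libraries were the same for 8 genes, 41 in place of 40 for Asns and 5 in place of 4 for Slc7a11. Because 2 in 200000 counts is again 10 CPM, close numbers say little on depth. Equal numbers can also hide changes of library. Ddit3 fell to 0 counts in daughter 1 of Dex pair 4, while its number stayed at 19.

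The next comparison asked whether founders differed in these genes beyond the difference between their daughters. It used edgeR's quasi-likelihood F test of the pair terms on single cells, within treatment, p-values were adjusted by Benjamini-Hochberg over every gene in the fit, and a gene was called at an adjusted p under 0.05. Of 8015 genes, 271 (3.38%) were called, and of the 8 members tested, 1. That was Asns (adjusted p = 0.00263). It was called in the NoDex pairs alone (adjusted p = 0.00201), where 37 of 5354 genes (0.691%) were called, and not in the Dex pairs alone (adjusted p = 0.147), where 155 of 6057 (2.56%) were called. Whether the treatments differ in this was tested only through the spread and the daughter differences below. With each pair left out in turn, Asns was called every time, with an adjusted p between 0.00028 and 0.0304.

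Daughters differed in Asns by 1.16 ± 1.57 on the log2(CPM + 1) scale (mean ± SD, n = 23 pairs), against 2.94 for cells of different founders in 1 treatment, a ratio of 0.395. The median of this ratio over the 8015 genes was 0.865. Ddit3 followed, with 1.72 between daughters and 3.03 between founders, and was not called (adjusted p = 0.188). Psat1 differed by 0.899 between daughters and 1.14 between founders (adjusted p = 0.288). For Phgdh, at 0.928 and 0.971, Shmt2, at 1.24 and 1.27, and Mthfd2, at 1.81 and 1.97, sisters differed about as much as cells of different founders, with adjusted p-values of 0.462, 1 and 0.915.

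Over both treatments, Trib3 and Atf4 were the 2 members whose daughters differed more than cells of different founders. The values were 3.52 and 3.06 for Trib3 and 3.35 and 2.87 for Atf4, and neither was called (adjusted p = 0.537 and 0.254). Within 1 treatment the ratio also passed 1 for Mthfd2 (1.024) and Shmt2 (1.003) in Dex pairs. In NoDex pairs it did so for Phgdh (1.093) and Psat1 (1.127). The Atf4 value leans on Dex pair 12: its adjusted p was 1 without that pair. DESeq2's likelihood ratio test called Atf4 (adjusted p = 9.86e-05) and Ddit3 (0.0237), and limma called Ddit3 (0.0275). These tests called more of all genes, DESeq2 1372 and limma 639 of 8015, against 271 by edgeR.

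**Figure D2:**
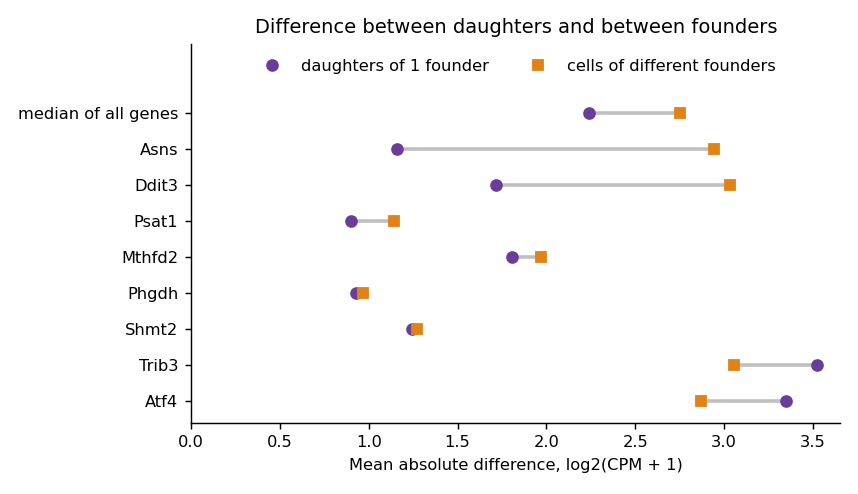
Mean absolute difference in log2(CPM + 1), horizontal axis, between the daughters of 1 founder (circles) and between cells of different founders of 1 treatment (squares) for the 8 tested members and the median of 8015 genes, over 23 pairs. The gap is widest for Asns, at 1.16 against 2.94, and turned round for Trib3 and Atf4.

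**Figure D3:**
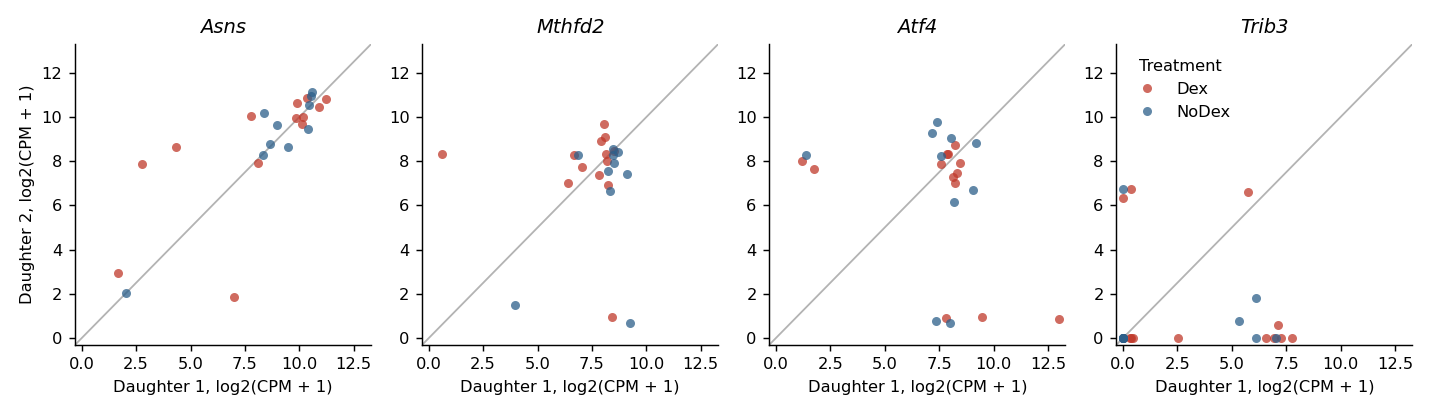
Level in daughter 2 against daughter 1, both log2(CPM + 1), for Asns, Mthfd2, Atf4 and Trib3, 1 point per pair, 13 Dex (red) and 10 NoDex (blue), with the line of equal levels. Most Asns points lie near the line, at high and at low levels, with Dex pairs 6, 10 and 12 far from it. Mthfd2 and Atf4 points cluster at the upper end with some pairs near an axis. Trib3 points lie on or near an axis, except for Dex pair 2, high in both daughters, and NoDex pair 5, at 6.11 and 1.79.

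Low Asns went with high Mpo, the gene for the granule enzyme myeloperoxidase. In the 11 libraries with at least 1000 CPM of Mpo, which held 4621 to 23921 CPM of it, Asns ran from 2.15 to 318 CPM and Gata1 from 0 to 176 CPM. In the other 35 libraries, with at most 556 CPM of Mpo, Asns ran from 220 to 2420 CPM and Gata1 from 118.5 to 2732 CPM. The 11 libraries were both daughters of Dex pairs 6, 7 and 10 and of NoDex pairs 9 and 10, and daughter 1 of Dex pair 12. In that pair the Mpo-high daughter held 19.0 CPM of Asns and its sister, with 7.36 CPM of Mpo, held 398. NoDex pair 9 combined high Mpo with Asns at 318 and 311 CPM, above the lowest of the other libraries.

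Without the 7 pairs that had at least 3 granulocyte and monocyte markers in a daughter, which left 9 Dex and 7 NoDex pairs, Asns was not called (adjusted p = 0.33). The same omission brought the count over all genes to 39. The part of these cells in the founder difference of Asns was not tested beyond this.

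**Figure D4:**
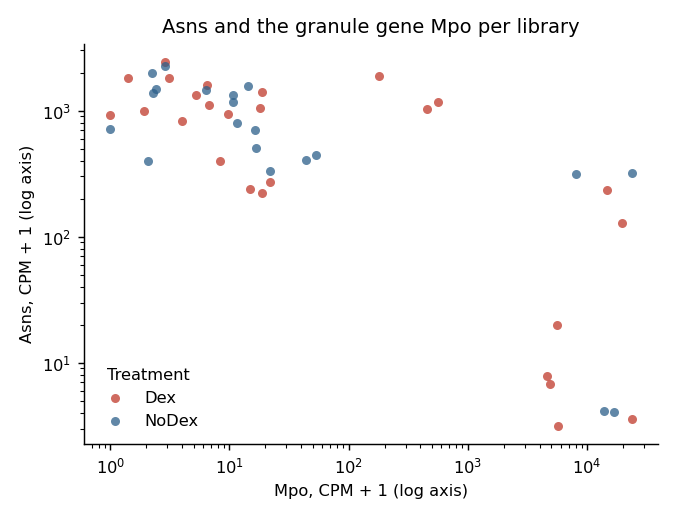
Asns against Mpo, both CPM + 1 on log axes, in the 26 Dex (red) and 20 NoDex (blue) libraries, 1 point per library. The 35 libraries with little Mpo hold 220 CPM of Asns or more, and the 11 with 4621 CPM of Mpo or more spread from 2.15 to 318 CPM.

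Over the 23 pair means, the genes most like Asns were Ppp2r1b, Adk, Nt5c3, Gclm and Fech, with Pearson's r of 0.927 to 0.882, a list made after the values of Asns were seen. Fech encodes the last enzyme of heme synthesis. Most like Atf4 were Atp13a3 (0.884), Nol10 (0.835), the erythropoietin receptor gene Epor (0.823), Eif2b2 (0.81) and Top1 (0.806). Most like Mthfd2 were Eif3d (0.874), Cops3, Ndufs3, Ggnbp2 and Uqcrfs1 (0.823). Between members r ran from -0.351 for Mthfd2 with Phgdh to 0.647 for Atf4 with Mthfd2. These values describe 23 pairs that differ in depth and in myeloid markers, and carry no test. The library codes of the pairs share an ending that the labels do not explain.

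The treatment comparison asked what dexamethasone changed in the daughters, with the counts of a pair summed. By edgeR's quasi-likelihood test 0 of 7190 genes (0%) were called. An unadjusted p under 0.05 was reached by 69 genes there, by 173 in DESeq2 and by 304 in limma, which also called 0. The 8 members that passed the filter had log2 fold changes, Dex over NoDex, of 0.23 ± 0.41 (SE) for Atf4, -0.02 ± 0.67 for Asns, 0.24 ± 0.25 for Phgdh, 0.19 ± 0.30 for Psat1, 0.24 ± 0.23 for Shmt2, 0.13 ± 0.40 for Mthfd2, 0.95 ± 1.39 for Trib3 and 1.24 ± 1.43 for Ddit3. Shmt2 alone had an estimate larger than its standard error, 0.238 against 0.234. Their median was 0.24, beside 0.04 over all genes tested.

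The library codes in the labels join a number and a letter, read here as plate column and row, and the sign of several members depended on that number. In columns 1 to 4 (8 Dex and 6 NoDex pairs) the mean of pair means, in log2(CPM + 1), was 6.81 in Dex and 8.24 in NoDex pairs for Atf4, 8.31 and 9.73 for Asns, and 7.41 and 8.17 for Mthfd2. In columns 5 to 7 (5 Dex and 4 NoDex pairs) it was 7.04 in Dex and 5.28 in NoDex pairs for Atf4, 8.28 and 7.59 for Asns, and 7.47 and 5.90 for Mthfd2. For these 3 genes Dex pairs were lower in the first set and higher in the second. Phgdh went the other way, at 9.05 in Dex and 8.82 in NoDex pairs of the first set and 8.61 and 8.83 in the second. Its Dex mean in the second set included 5.94 in Dex pair 12, whose daughter 1 was the shallowest library used. Dex pairs 9, 10, 11 and 13 stood at 9.40, 8.93, 9.53 and 9.24, each above 8.83. Psat1 was lower in Dex pairs of both sets, at 9.31 and 9.48 and at 9.01 and 9.34. Shmt2 stood at 9.29 in Dex and 9.31 in NoDex pairs of the first set and 9.08 and 8.29 in the second. Of the Mpo-high pairs, Dex pairs 6 and 7 are in the first set, and Dex pairs 10 and 12 and NoDex pairs 9 and 10 in the second. Their part in these differences was not tested.

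Trib3 and Ddit3 also differed between the sets. In columns 5 to 7 both were at 0 in all 4 NoDex pairs, against 2.31 ± 1.51 for Trib3 and 3.70 ± 3.2 for Ddit3 in the 5 Dex pairs (SD). In columns 1 to 4 Trib3 stood at 2.67 ± 2.27 in Dex and 2.82 ± 1.42 in NoDex pairs, and Ddit3 at 2.39 ± 1.86 in Dex and 3.43 ± 2.09 in NoDex pairs. The difference between the plate sets was not tested.

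Spread between founders was compared between treatments with limma on the absolute deviations of pair means from their treatment's median, over all genes. It called 0 of 8015 genes (0%), with 194 at an unadjusted p under 0.05. Pair means of Asns had an SD of 2.80 in Dex and 2.55 in NoDex pairs on the log2(CPM + 1) scale, those of Mthfd2 1.40 and 1.90, and those of Atf4 1.56 and 1.90. Psat1 was the member with the largest difference for its error, with SDs of 0.951 in Dex and 0.411 in NoDex pairs. Its mean deviation was 0.748 in Dex and 0.361 in NoDex pairs, a difference of 0.39 ± 0.22 (SE, adjusted p = 0.9985), which came to 0.078 without the pairs with myeloid markers. A count of 0 does not show that the spreads were equal.

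Daughter agreement was compared in the same way on the absolute differences between sisters. Again 0 of 8015 genes (0%) were called, with 325 at an unadjusted p under 0.05. Daughters differed in Asns by 1.63 ± 1.94 in Dex pairs and 0.557 ± 0.551 in NoDex pairs (SD, n = 13 and 10), a difference of 1.07 ± 0.56 (SE, adjusted p = 0.9925, limma). The Dex pairs with the most unequal Asns were 6, at 127 and 2.59 CPM, 10, at 5.8 and 234 CPM, and 12, at 19.0 and 398 CPM. Both sisters were Mpo-high in Dex pairs 6 and 10, and daughter 1 alone in Dex pair 12. In Dex pair 10 the sister with more Mpo, 14623 against 4843 CPM, was the one with more Asns. That sister also held more Gata1, 176 against 6.10 CPM. In Dex pair 6 Gata1 was near 0 in both sisters, at 1.57 and 0.862 CPM. Without the pairs with myeloid markers the treatment difference in Asns turned to -0.18. For the other members the difference between treatments ran from -0.10 (Shmt2) to 1.15 (Trib3), with adjusted p-values of 0.9925 or more.

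For Mthfd2 the treatment comparison depended on 1 library with few counts. Why that library held so many Mthfd2 reads was not tested. With all 26 pairs in the fit the log2 fold change of Mthfd2 was -2.04 ± 0.71 (SE), against 0.13 ± 0.40 with the 23 pairs. The 3 pairs left out of the second fit were NoDex pair 4, with 13575 and 0 counts, pair 7, with 5733 counts in daughter 1, and pair 12, with 11791 in daughter 2. In daughter 1 of NoDex pair 4, 238 of the 13575 reads were of Mthfd2, a share of 1.75% (exact 95% interval 1.54 to 1.99%, counting error only) or 17532 CPM. Mthfd2 was the third most abundant gene of that library. In the 46 libraries of the 23 pairs its rank was between 220 and 5419 and its level at most 811.5 CPM.

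The other shallow libraries were in the usual range, with 4 reads (698 CPM) in NoDex pair 7 and 3 reads (254 CPM) in NoDex pair 12, where 1 read is worth 174 and 84.8 CPM. Their sisters held 448 and 411 CPM. In daughter 1 of NoDex pair 4 no other member was above its range in the 46 libraries. That library held 13 reads of Asns (958 CPM), 5 of Shmt2 (368 CPM), 1 of Trib3 (73.7 CPM) and none of Atf4. As 1 read is worth 73.7 CPM there, it cannot be told whether members with so few reads were raised. With all 26 pairs and each left out in turn, the log2 fold change of Mthfd2 was between -2.41 and -1.95 in 25 fits and 0.01 without NoDex pair 4. The negative value of the 26 pairs is thus the value of 1 library.

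**Figure D5:**
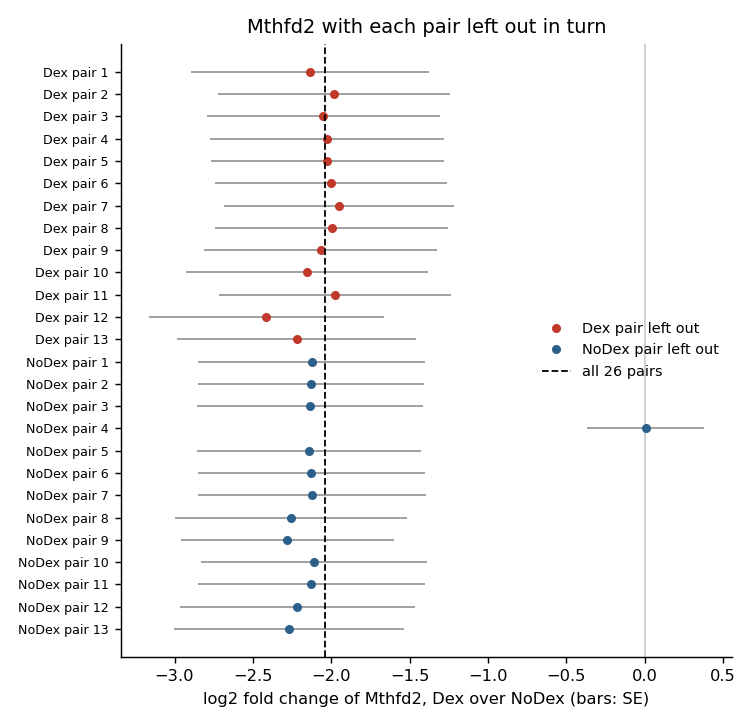
Log2 fold change of Mthfd2, Dex over NoDex, with its standard error, in fits of all 26 pairs with the pair named on the vertical axis left out, Dex pairs above and NoDex pairs below. The dashed line marks the value with all 26 pairs, -2.04, and the fit without NoDex pair 4 gives 0.01.

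The other genes of the pathway were read from lists that were likewise drawn up with earlier results known. Founder calls of edgeR are set beside the 3.38% of all genes. Those of DESeq2 stand beside 1372 of 8015 genes called, and those of limma beside 639 of 8015. Of 28 further ATF4 and stress response targets 10 passed the filter and edgeR called none. The lowest p-values were those of Slc25a33, a mitochondrial nucleotide carrier (adjusted p = 0.123), Herpud1 of endoplasmic reticulum degradation (0.184) and Cebpg, an ATF4 partner (0.276). DESeq2's likelihood ratio test called all 3 (adjusted p = 0.0028, 0.0032 and 0.0445) and limma called Slc25a33 (0.0457). Of 20 aminoacyl-tRNA synthetases, which load amino acids on their tRNAs, edgeR called 1. It was Hars, for histidine (adjusted p = 0.0247), with Nars for asparagine at 0.117 and Aars for alanine at 0.167. Nars and Aars were called by limma (adjusted p = 0.0366 and 0.0159) and by DESeq2 (0.00564 and 0.00043). DESeq2 also called Hars (3.58e-15). Hars held 8889 CPM in daughter 1 of Dex pair 12, the shallow library that was also highest in Atf4. Its edgeR call was lost without Dex pair 12 (adjusted p = 0.931) and also without Dex pair 1 or 7 or NoDex pair 1 or 13 (0.0807 to 0.184). It was also lost within plate columns (0.306), with limma (0.237) and without the pairs with myeloid markers (1).

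Of 12 amino acid transporters 11 were tested and edgeR called none, the lowest p-values being those of Slc1a4, Slc6a9 and Slc1a5 (adjusted p = 0.204 to 0.339), of which limma called Slc1a5 (0.0192). Of 22 further enzymes of serine, glycine, proline and one-carbon metabolism 15 were tested and edgeR called none. There Gcsh of the glycine cleavage system (adjusted p = 0.117) and the mitochondrial serine transporter gene Sfxn1 (0.133) had the lowest p-values. Sfxn1 was like Asns in that sisters differed by 1.09 and cells of different founders by 2.22 on the log2 scale. limma and DESeq2 called both Gcsh and Sfxn1 (adjusted p = 0.00022 to 0.00165).

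Of 15 stress sensors and eIF2 factors 13 were tested and edgeR called none, with Eif2b4, a subunit of the eIF2 exchange factor, lowest (adjusted p = 0.107) before Eif2b5 and Ppp1r15b (both 0.37). Eif2b4 was called by limma (adjusted p = 0.0071) and by DESeq2 (8.69e-07), and DESeq2 also called Eif2b5 (0.0492) and Ppp1r15b (0.0324). Of 15 endoplasmic reticulum chaperones and sensors 13 were tested and 1 was called. It was the disulfide isomerase gene Pdia6 (adjusted p = 0.0461), with Hspa5 (0.0569) and Calr (0.0582) close to the threshold. Pdia6 was highest, at 2916 CPM, in daughter 1 of NoDex pair 9, an Mpo-high library. Its call was lost without Dex pair 1, 3, 4, 5, 6, 10 or 11 or NoDex pair 1, 6 or 13 (adjusted p = 0.0516 to 0.261), with the other scaling (0.0624), with a filter of 1 count in 2 libraries (0.112), within plate columns (0.0931) and without the pairs with myeloid markers (0.27).

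In the treatment comparison none of these lists held a called gene, as none of all 7190 did. Positive and negative log2 fold changes, Dex over NoDex, numbered 14 and 6 among synthetases, 5 and 5 among further ATF4 targets, 9 and 6 among enzymes, 4 and 7 among transporters, 5 and 8 among sensors and 3 and 10 among chaperones. Over all genes tested they numbered 3806 and 3384. The values with the lowest p-values in their lists included 0.47 ± 0.27 (SE) for Eif4ebp1, which encodes a brake on cap-dependent translation, -1.11 ± 0.76 for Xpot, the tRNA exporter, 0.38 ± 0.32 for Eprs, 0.95 ± 0.72 for the transporter gene Slc7a6 and -0.37 ± 0.21 for the chaperone gene Canx. Among the rest, Aars stood at 0.61 ± 0.57, Slc38a1 at -0.58 ± 0.59, Tyms at 0.24 ± 0.28, Got2 at 0.41 ± 0.61, Eif2s1 at -0.21 ± 0.22, Eif2b5 at 0.58 ± 0.76 and Hspa5 at -0.50 ± 0.33.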

How the data were processed

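RNA of single daughter cells was counted per gene. The authors deposited raw counts of reads as whole numbers, 1 table per treatment, made with STAR 2.4 and featureCounts on genome build GRCm38, per the submitters' processing notes. The sources used here state neither strand and multi-mapping settings nor molecular identifiers. All columns were matched to samples by name and 0 were left unused.

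Groups and pairs came from the labels. Plate columns and rows were read from the number and letter of the library codes, which the labels do not explain. NoDex pairs stood in other single plate columns than Dex pairs except for 1 column, so columns were grouped as 1 to 4 and 5 to 7, and single columns and treatment cannot be told apart. Pairs with a library under 100000 counts were left out of the main fits. Totals of the libraries used ran from 210383 to 5606500 counts, at which 1 read is worth less than 5 CPM.

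R 4.3.3 with edgeR 4.0.16, limma 3.58.1 and DESeq2 1.42.0 was used. The treatment comparison took summed counts of a pair, filterByExpr (minimum count 10, minimum total 15), TMM scaling and edgeR's quasi-likelihood test. Founder tests took single cells and genes that reached 5 counts in 10 or more libraries. When pairs were left out in turn, founder tests kept the trended dispersion of the 23 pairs. Spread and daughter differences took log2(CPM + 1), and limma. P-values were adjusted by Benjamini-Hochberg over all genes tested, with a threshold of 0.05. The scripts were tested on simulated data. Alternatives were other scalings, filters, pseudocounts, tests, depths, plate terms, a pair-number block and sets of pairs.

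The members, the 6 other lists, the markers and the tests were chosen with earlier results of these data known. From each other list the rule named up to 3 genes with the smallest p in the founder test and up to 2 in the treatment test, and for Atf4 and Mthfd2 the 5 named genes with the highest correlation. One gene that this rule names is not reported here. Locations and exon lengths came from GENCODE release M21 (GRCm38) and promoters from RefSeq (GRCm38.p6). Exact binomial intervals were computed with scipy 1.17.1.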

Additional observations from a re-analysis of the deposited data

Results flagged for a closer look

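In Dixon's test of each gene's pair means within a treatment, 4 of 10 NoDex groups tested held a pair far from the rest, where chance marks about 1 in 20 groups of normally distributed values. Chac1 and Slc7a11, at or near 0 in most pairs, do not have such values, so the number marked is not set against that rate. The values are log2(CPM + 1). Asns stood at 2.04 in NoDex pair 10, with the next pair at 8.30, and both daughters of that pair were Mpo-high. Shmt2 stood at 5.14 in NoDex pair 9, with the next at 8.46. Chac1 stood at 3.09 in NoDex pair 5, with every other pair at 0. Slc7a11 stood at 2.39 in NoDex pair 13, with the next at 1.11. The 13 Dex pairs are too many for this test.

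Outside the pairs used, daughter 1 of NoDex pair 4 held 17532 CPM of Mthfd2, where the 46 libraries of the 23 pairs held at most 811.5. Its sister held 0 counts, so the value has no second cell beside it.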

How the results depend on the processing

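The counts of 0 genes for treatment, spread and daughter difference stayed at 0 under every alternative run, except that the treatment comparison without the 7 pairs with myeloid markers called 1 gene, the glucocorticoid target Tsc22d3 (adjusted p = 0.00466, named after its value was seen). The pair numbers of the labels did not pair the samples: over 10 shared numbers the correlation of deviations ran from -0.134 to 0.195, with 2 above 0.1, and 1 Dex pair correlated best with its own number. With the pair number as replicate block the treatment test still called 0 genes.

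The 271 founder calls became 39 without the pairs with myeloid markers, 639 with limma, 93 within plate columns and 1372 with DESeq2, and 145 to 297 with a pair left out. The cause was not tested. Leaving out Dex pair 12 gave 145, NoDex pair 13 162, and Dex pair 1 and NoDex pair 1 177 each. Asns was called in all of these but the first (adjusted p = 0.33).

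The signs below turned in fits where no member passed the threshold, and the cause was not tested. Treatment differences without the pairs with myeloid markers were -0.16 for Atf4, 0.052 for Asns, -0.17 for Mthfd2, -0.076 for Tyms and -0.042 for Got2. With the replicate block they were -0.018 for Atf4, 0.34 for Asns, -0.0028 for Mthfd2, -0.022 for Psat1 and 0.0019 for Hspa5. With limma they were -0.15 for Atf4, -0.22 for Psat1 and -0.00074 for Tyms, and with all 26 pairs -2.04 for Mthfd2. With 1 of the 23 pairs left out, they ran from -0.24 to 0.40 for Atf4, -0.18 to 0.17 for Asns, -0.11 to 0.22 for Mthfd2 and -0.018 to 0.27 for Psat1. With 1 of all 26 left out, they ran from -0.27 to 0.49 for Atf4, -0.37 to 0.031 for Asns and -2.41 to 0.0058 for Mthfd2.

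Spread differences without the pairs with myeloid markers were 0.078 for Psat1, against 0.39 with them, 0.47 for Mthfd2 and -0.050 for Phgdh, with the replicate block -0.15 for Phgdh, and with log2(CPM + 10) 0.039 for Trib3 and 0.090 for Ddit3. With a pair left out they ran from -0.46 to 0.0080 for Atf4, -0.38 to 0.31 for Mthfd2, -0.35 to 0.16 for Shmt2, -0.074 to 0.20 for Phgdh, -0.37 to 0.037 for Trib3 and -0.48 to 0.21 for Ddit3.

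Daughter differences without the pairs with myeloid markers were -0.12 for Atf4, -0.18 for Asns, 0.11 for Shmt2, -0.17 for Psat1 and -0.040 for Phgdh. With the replicate block they were -0.47 for Atf4, -0.33 for Mthfd2, -0.16 for Psat1 and -0.17 for Phgdh, and with log2(CPM + 10) 0.12 for Shmt2. With a pair left out they ran from -0.40 to 0.79 for Atf4, -0.42 to 0.83 for Mthfd2, -0.39 to 0.69 for Shmt2, -0.20 to 0.22 for Psat1 and -0.17 to 0.21 for Phgdh. Depth limits the shallowest library used, with 210383 counts.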
